A study of Mus musculus with 6 samples.

Results

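The ADAMTS proteases measured here were 10 genes, Adamts1, Adamts2, Adamts4, Adamts5, Adamts7, Adamts8, Adamts9, Adamts10, Adamts12 and Adamts15, out of 19 ADAMTS genes and 55364 genes listed in the count tables. They were taken by name and grouped by the substrates the enzymes are known for. All 6 libraries came from primary mouse lung fibroblasts held for 24 h in medium without serum but with 10 ng/ml TGFβ1, the growth factor that turns fibroblasts into contractile, matrix-producing myofibroblasts. There were 3 libraries from WT cells and 3 from cells labelled TKS5 knockout, and no library from untreated cells was part of the comparison. By the study's methods the cells were grown from C57Bl6/J mice of 8 to 10 weeks and used at passage 2 to 3, and the mutants were heterozygous littermates (Tks5+/-), because no homozygous mutant was born. An internal exon of Sh3pxd2a, the gene of the podosome scaffold TKS5, had been removed with a Cre recombinase driven in all tissues by a CMV promoter. The 2 groups are called WT and knockout-labelled below. The comparison asks which ADAMTS transcripts differ between TGFβ-treated fibroblasts with an intact scaffold gene and those carrying the mutant allele.

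ADAMTS proteases are secreted zinc enzymes with a metalloproteinase domain followed by a disintegrin-like domain and thrombospondin type 1 repeats. They are made as inactive precursors that proprotein convertases such as furin cut, they act on matrix outside or at the surface of the cell, and TIMP3 blocks several of them. The hyalectanases (Adamts1, Adamts4, Adamts5, Adamts8, Adamts9 and Adamts15) cut large proteoglycans that bind hyaluronan, such as versican and aggrecan. Adamts2 removes the amino-terminal propeptide of fibrillar procollagens, Adamts7 and Adamts12 cut cartilage oligomeric matrix protein, and Adamts10 binds fibrillin microfibrils.

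The coding sequence of the zinc-binding site is shown because it is the catalytic element that all members share. The members are listed by substrate group. The 33 bases of each member run 5′ to 3′ on the coding strand of the transcript with the longest coding sequence in GENCODE M21 (GRCm38), with capitals at the codons of the 3 histidines that hold the zinc ion and of the catalytic glutamate. In all 10 members the site lies across an exon junction, so it is not 1 unbroken stretch of the genome.
Adamts1: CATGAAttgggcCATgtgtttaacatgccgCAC
Adamts4: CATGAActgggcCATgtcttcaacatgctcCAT
Adamts5: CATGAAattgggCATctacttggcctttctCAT
Adamts8: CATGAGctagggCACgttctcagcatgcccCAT
Adamts9: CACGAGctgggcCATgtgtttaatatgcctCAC
Adamts15: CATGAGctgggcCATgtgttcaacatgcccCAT
Adamts2: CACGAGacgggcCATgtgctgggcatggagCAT
Adamts7: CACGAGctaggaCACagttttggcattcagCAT
Adamts12: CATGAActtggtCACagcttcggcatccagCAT
Adamts10: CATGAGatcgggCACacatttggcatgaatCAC
Among the 15 pairs of hyalectanases the sites differed at 3 to 15 of 33 bases, with a median of 8. Over the other 30 pairs they differed at 7 to 16 bases, with a median of 12.5. Adamts5 stood apart within its group, differing from the other hyalectanases at 12 to 15 bases. The site thus did not separate the substrate groups. Adamts4 and Adamts15 were the closest pair, at 3 bases, and Adamts7 and Adamts12, which share a substrate, differed at 7.

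The genes lay on 7 chromosomes of GRCm38, with 2 pairs of neighbours. Adamts1 (chr16:85793827-85803113) and Adamts5 (chr16:85856173-85901828) were both on the minus strand, 53.1 kb apart, with 0 protein-coding genes between them. Adamts15 (chr9:30899155-30922452, minus strand) and Adamts8 (chr9:30942562-30963838, plus strand) lay head to head, 20.1 kb apart with 0 genes between them. The others were Adamts7 (chr9:90163069-90208071), Adamts2 (chr11:50602084-50807573), Adamts4 (chr1:171250421-171260637), Adamts10 (chr17:33524204-33553782) and Adamts12 (chr15:11064790-11349231) on the plus strand and Adamts9 (chr6:92772699-92943492) on the minus strand.

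The libraries held 1344507 to 2369882 counts, and 10346 genes passed the filter on low counts. Of these, 44.9% were called different between the groups, meaning an adjusted p below 0.05 in edgeR's quasi-likelihood test with Benjamini-Hochberg adjustment and at least a 1.2-fold difference. Lower calls made up 22.1% of the genes tested (2286) and higher calls 22.8% (2356). When library totals were used for scaling in place of TMM, the split was 3944 lower and 1362 higher, and over all genes tested the middle log2 fold change moved from -0.05 to -0.47. Counts of Sh3pxd2a itself were 205, 190 and 284 in WT and 238, 258 and 260 in the knockout-labelled libraries, or 113 ± 16.5 and 138 ± 11.1 CPM (SD, n = 3 each; CPM is the count scaled to the TMM-adjusted library size), with a log2 fold change of 0.29 (SE 0.20, adjusted p = 0.249). By quantitative PCR the paper reports reduced Tks5 mRNA in Tks5+/- lung fibroblasts, a reduction that these 3′ end counts did not show. Reads at the transcript's 3′ end lie outside the removed exon. The paper's Tks5+/- mice carried either an allele with a LacZ reporter or another mutant allele of the gene. Which allele these libraries carried is not given in the sources used here, and the reason for the missing reduction was not tested. The labels were therefore not checked by this count, and every direction below rests on them. WT replicate 3 stood apart from the other WT libraries: the summed level of 12 macrophage markers was 2104 CPM there, against 422 and 355 in WT replicates 1 and 2 and 126 to 140 in the knockout-labelled libraries.

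The ADAMTS transcripts as a whole were less abundant in the knockout-labelled libraries. Counts over the 10 genes summed to 1108, 1393 and 994 in WT and to 458, 299 and 353 in the knockout-labelled libraries. On the CPM scale the sum was 609 ± 209 in WT and 202 ± 42.5 in the others. The sums did not overlap: the lowest WT value was 369 CPM, in replicate 3, and the highest knockout-labelled value 251 CPM. Of the 10 genes, 8 passed the filter, and 6 of these were called lower, 0 higher and 2 not called, against 22.1% of all genes called lower. Adamts8 and Adamts9 were past the filter's limit only in WT libraries. The filter itself thus favoured a lower level in the other group, though it did not fix the call. Of the 6 members past it in both groups, Adamts1, Adamts2, Adamts5 and Adamts12 were called lower, and Adamts4 and Adamts10 were not called. The median log2 fold change of the 8 was -1.46, beside -0.05 over all genes tested. In bulk RNA, fewer cells of a type and less RNA per cell cannot be told apart.

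**Figure D1:**
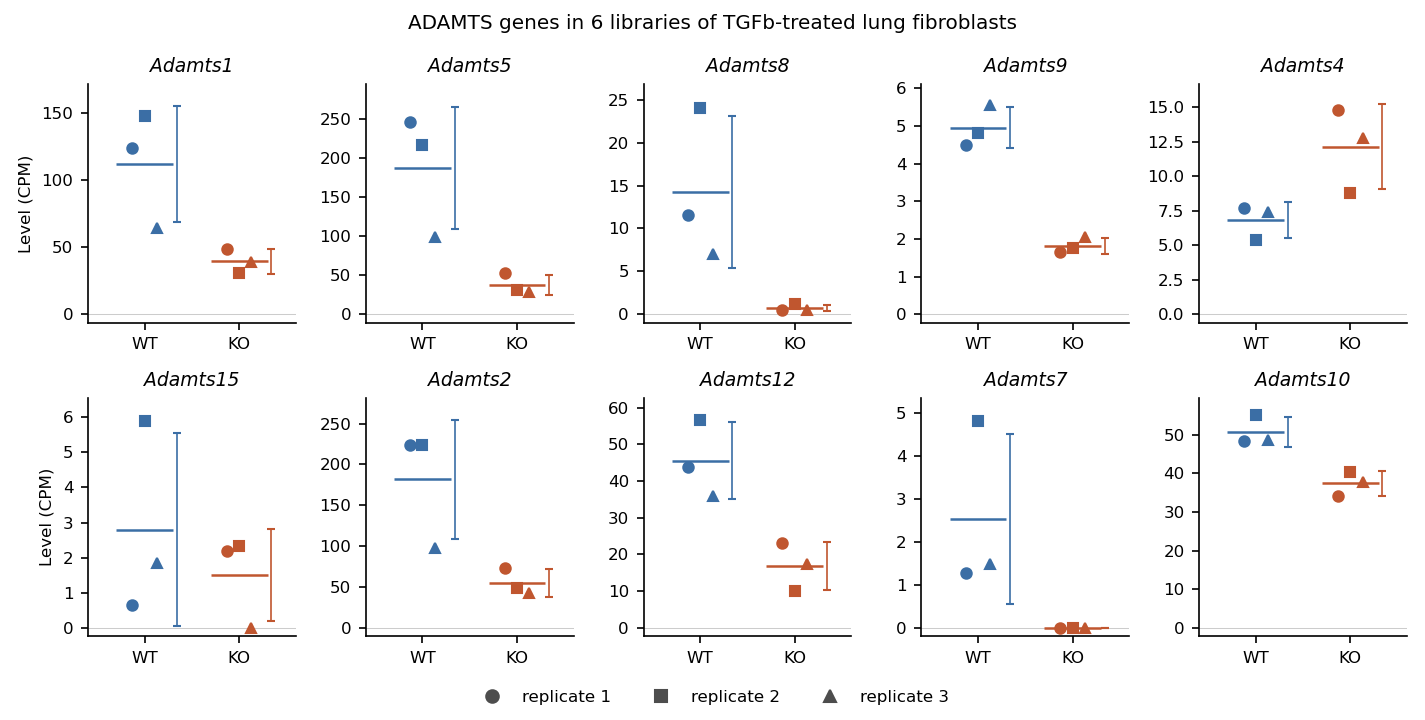
Level of each ADAMTS gene (CPM, y axis, a separate scale in each panel) in the 3 WT libraries (blue) and the 3 knockout-labelled libraries (KO, orange), with marker shape for the replicate number, a line at the mean and a bar of 1 SD. WT and knockout-labelled libraries overlap for Adamts15 alone, and Adamts4 alone is higher in the knockout-labelled libraries. Of all genes tested, 27.6% had every knockout-labelled library below every WT library, and the share in the other direction was not counted.

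Among the hyalectanases, Adamts5, a major aggrecanase of cartilage, and Adamts1, which cuts versican and is induced in inflamed and ovulating tissue, had the most reads. Adamts5 was at 247, 217 and 98.6 CPM in WT replicates 1 to 3 and at 52.7, 31.6 and 29.2 CPM in the knockout-labelled replicates. Every knockout-labelled library was below every WT library, and WT replicate 3 had less than replicates 1 and 2. The means were 187 ± 78.5 and 37.8 ± 12.9 CPM, and the log2 fold change was -2.30 (SE 0.33, 95% interval -3.01 to -1.59, adjusted p = 6.55e-05). Adamts1 was at 124, 148 and 64.1 CPM in WT and at 48.8, 30.4 and 38.9 CPM in the knockout-labelled libraries. The same WT replicate was again the lowest, but above all 3 libraries of the other group. Adamts1 fell by 1.50 on the log2 scale (SE 0.28, adjusted p = 1.85e-04), from 112 ± 43.3 to 39.4 ± 9.22 CPM. Without WT replicate 3 the log2 fold changes were -2.62 for Adamts5 and -1.79 for Adamts1.

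Adamts8, an aggrecanase that is also known as an inhibitor of blood vessel growth, had few reads and nearly all of them in WT. Its counts were 18, 45 and 19 in WT and 1, 2 and 1 in the knockout-labelled libraries, with means of 14.2 ± 8.82 and 0.744 ± 0.37 CPM. Summed over libraries, 82 counts stood against 4, a level 18.4-fold higher in WT with a 95% interval of 6.91 to 69.0 that covers counting error only. The call was at an adjusted p of 2.15e-05, but Adamts8 was past the filter's limit only in WT libraries. The filter thus favoured a lower level in the other group. WT replicate 2 held the most of these reads. Without it the fitted log2 fold change went from -4.15 to -3.53, a difference of over 1.5 times in fold. The gene's end overlaps an antisense gene, Gm29724, which had 0 counts in all 6 libraries.

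Adamts9, a hyalectanase that also takes part in matrix secretion and ciliogenesis, was at 4.51, 4.82 and 5.56 CPM in WT and at 1.65, 1.76 and 2.05 CPM in the knockout-labelled libraries. The groups stood apart with little spread inside each, but these levels were only 7 to 15 counts in WT and 3 to 4 counts in the others. Its log2 fold change was -1.43 (SE 0.54, 95% interval -2.56 to -0.30, adjusted p = 0.0360). The call was lost whichever of the 6 libraries was left out, with adjusted p-values from 0.0686 to 0.137, and it held in 4 of 18 alternatives in all.

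Adamts4, an aggrecanase induced by inflammatory cytokines, was the 1 member tested with a positive fold change. It was at 7.72, 5.35 and 7.42 CPM in WT and at 14.8, 8.78 and 12.8 CPM in the knockout-labelled libraries. Each library of the second group was above each WT library, and the means were 6.83 ± 1.29 and 12.1 ± 3.07 CPM. The share of all genes that stood apart in this direction was not counted, while 22.8% of those tested were called higher. The log2 fold change of 0.82 (SE 0.38, 95% interval 0.04 to 1.61) did not pass the threshold after adjustment (adjusted p = 0.0816). It passed in 6 of 19 alternatives, among them the length correction (1.08, adjusted p = 0.0254), the authors' normalized values (1.01, adjusted p = 0.0291) and the fit without knockout-labelled replicate 2 (1.04, adjusted p = 0.0477). Its interval did not overlap that of Adamts5, the other main aggrecanase.

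Adamts15, the sixth hyalectanase, had too few reads to be tested. Its counts were 1, 11 and 5 in WT and 4, 4 and 0 in the knockout-labelled libraries, the only overlapping groups among the 10 genes. Over all genes tested, 27.6% had every knockout-labelled library below every WT library. The means of Adamts15 were 2.79 ± 2.74 and 1.51 ± 1.31 CPM, and with so few counts no difference between the groups was tested across genes. Its neighbour Adamts8, which starts on the other side of the same 20.1 kb interval, had 82 counts in WT and 4 in the other group, against 17 and 8 for Adamts15. The hyalectanases together summed to 396, 405 and 185 CPM in WT and to 121, 76.1 and 83.4 CPM in the knockout-labelled libraries.

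Adamts2, the procollagen N-proteinase whose loss causes the dermatosparaxis type of Ehlers-Danlos syndrome, was at 224, 224 and 97.9 CPM in WT and at 73.5, 48.6 and 42.0 CPM in the knockout-labelled libraries. The groups did not overlap, and WT replicate 3 was again the lowest WT library. Adamts2 fell by 1.73 on the log2 scale (SE 0.30, 95% interval -2.36 to -1.09, adjusted p = 2.20e-04), and its means were 182 ± 72.7 and 54.7 ± 16.7 CPM. The other procollagen N-proteinases were not measurable: Adamts3 was at 0 in every library, and Adamts14 had 2, 1 and 4 counts in WT and 4, 3 and 0 in the others.

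Adamts12 and Adamts7 share a mucin-like domain as well as a substrate. Adamts12 was at 43.8, 56.7 and 36.0 CPM in WT and at 23.0, 9.95 and 17.4 CPM in the knockout-labelled libraries. The log2 fold change between the separate groups was -1.42 (SE 0.29, 95% interval -2.02 to -0.82, adjusted p = 4.28e-04). Adamts7 had 2, 9 and 4 counts in WT and 0 in all 3 knockout-labelled libraries. Set at a floor of 3 counts over those libraries, it was 4.48-fold lower there, with counting error in WT left out. It was below the filter, and its end overlaps Tbc1d2b on the opposite strand, which had 27 to 74 counts in WT and 30 to 40 in the others; whether the counting used strand is not given in the sources used here.

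Adamts10, the fibrillin-binding member, had the smallest fitted change of the 8 genes tested. It was at 48.3, 55.1 and 48.6 CPM in WT and at 34.0, 40.4 and 37.9 CPM in the knockout-labelled libraries. The groups did not overlap, which was so, in the same direction, for 27.6% of all genes tested. The means of 50.7 ± 3.87 and 37.4 ± 3.20 CPM gave a log2 fold change of -0.44 (SE 0.22, 95% interval -0.90 to 0.02, adjusted p = 0.115). With library totals as scaling it was called (-0.86, adjusted p = 0.00328), and with a correction for transcript length and GC content its sign turned (0.16).

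**Figure D2:**
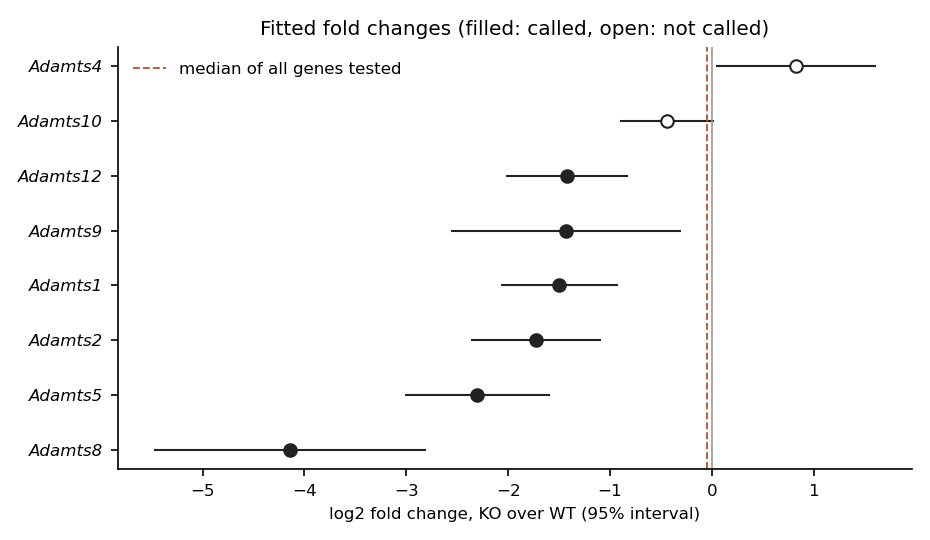
Log2 fold change of the 8 ADAMTS genes tested, knockout-labelled over WT (x axis), as points with 95% intervals, filled where called and open where not; the grey line is 0 and the dashed line the median of all genes tested, -0.05. Adamts8, Adamts5, Adamts2, Adamts1, Adamts9 and Adamts12 are called lower, and the interval of Adamts4 lies above 0.

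Because the members did not move alike, the make-up of the ADAMTS reads differed between the groups. Adamts5 made up 30.2% ± 4.06 of the 10 genes' counts in WT and 18.4% ± 2.42 in the knockout-labelled libraries (SD, n = 3 each), while Adamts10 went from 9.11% ± 3.53 to 19.2% ± 5.01 and Adamts4 from 1.27% ± 0.667 to 6.0% ± 1.04. Adamts8 went from 2.3% ± 0.856 to 0.390% ± 0.244. The shares of Adamts1 (18.2% ± 1.43 and 19.5% ± 2.07), Adamts2 (29.3% ± 2.50 and 26.7% ± 3.14) and Adamts12 (7.84% ± 1.82 and 8.16% ± 2.16) differed by less than the larger of the 2 SDs. These are shares of 3′ end reads, which are not scaled by transcript length, and they were not tested, being sums of the same counts as above.

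**Figure D3:**
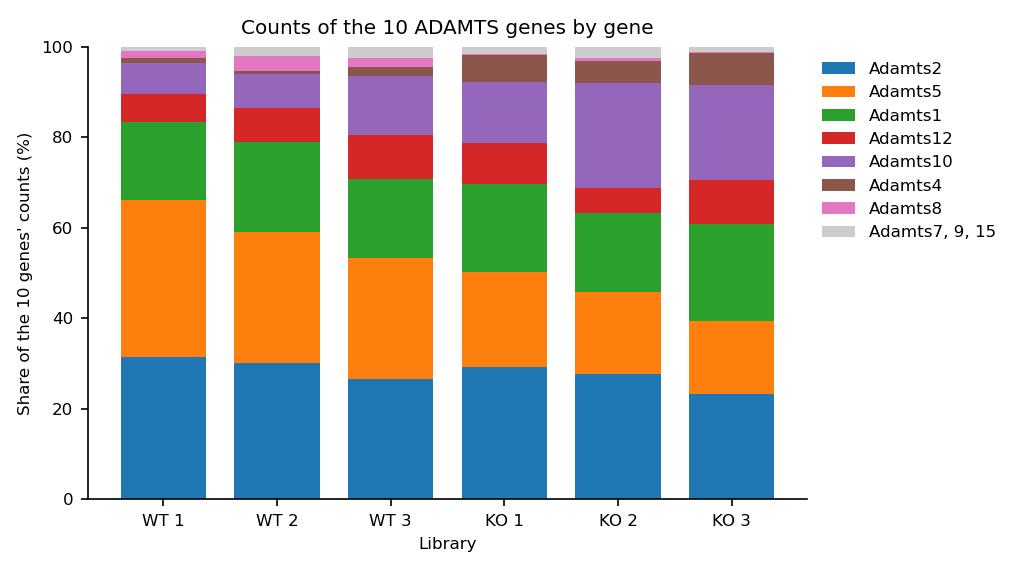
Share of the 10 ADAMTS genes' counts (%, y axis) taken by each gene in the 3 WT and 3 knockout-labelled (KO) libraries; grey is Adamts7, Adamts9 and Adamts15 together. Adamts5 takes 30.2% on average in WT and 18.4% in the knockout-labelled libraries, and Adamts10 and Adamts4 take more in the latter.

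Long transcripts were lower more often than short ones in these libraries, and the ADAMTS transcripts are long. With the genes tested ranked by longest transcript and cut into 4 groups of like size, the median log2 fold change went from 0.57 in the group of shortest transcripts to -0.51 in that of the longest, and the share called lower from 9.52% to 36.2%. The longest transcripts of the members ran from 3631 bases (Adamts8) to 10791 bases (Adamts5). With the trend on length removed from each library, Adamts5 was at -1.60, Adamts1 at -1.18, Adamts2 at -1.21, Adamts8 at -4.01 and Adamts12 at -0.84 (adjusted p = 0.0202 for the last), all still called lower. Adamts9 was no longer called (-0.88, adjusted p = 0.214). For Adamts5 this moved the fold by over 1.5 times. The part of length in the differences was not tested.

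**Figure D4:**
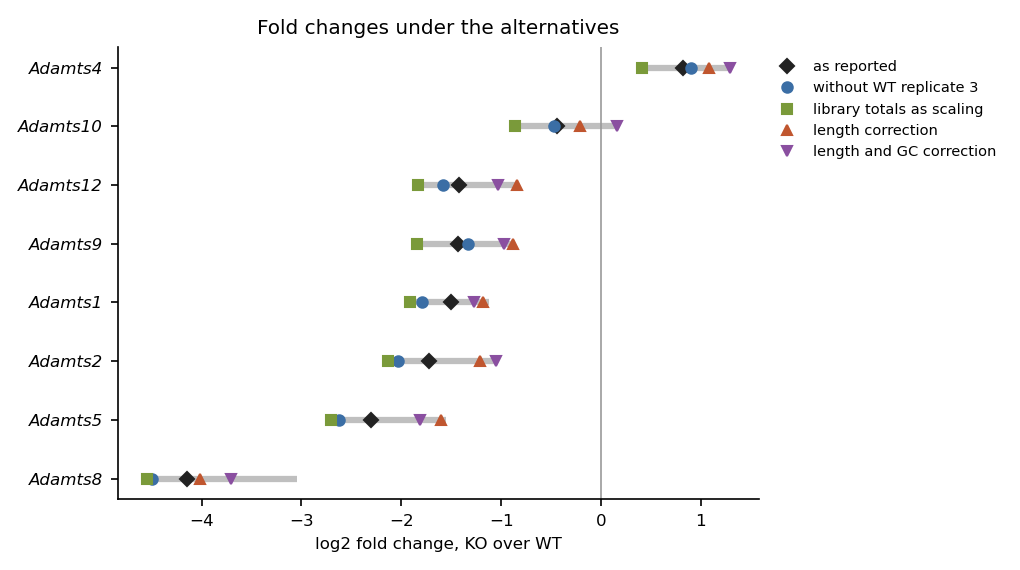
Log2 fold change of the 8 ADAMTS genes tested (knockout-labelled over WT, x axis) as reported and under 4 alternatives shown as symbols; the grey bar spans all 19 alternatives. Adamts1, Adamts2, Adamts5, Adamts8, Adamts9 and Adamts12 stay below 0 and Adamts4 above it, and Adamts10 crosses 0 with the length and GC correction.

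Markers listed for several cell types, fibroblasts among them, also differed between the groups. The counts of called markers below stand beside 22.1% of all genes tested called lower and 22.8% called higher. Macrophage markers were called lower in 6 of 10 tested, with 0 of the 12 at 0 in all libraries and 2 at 0 in every knockout-labelled library. Of the 6, 4 were past the filter's limit only in WT, so the filter itself favoured their lower level in the other group. Mesothelial markers summed to 37.5 to 50.8 CPM in WT and 5.63 to 14.3 CPM in the others, where the 3 genes tested had passed the filter only through WT. Endothelial markers summed to 113 to 134 and 45.6 to 60.4 CPM, with Egfl7 called lower (log2 fold change -1.67, adjusted p = 7.46e-06), Ramp2 not called, and Kdr and Pecam1 tested only through WT. Epithelial markers summed to 22.5 to 54.9 and 29.2 to 62.0 CPM, with 5 of 10 at 0 in all libraries and 8 of 10 at 0 in every knockout-labelled library. There Ager made up nearly all of the sum (37.3, 60.3 and 29.2 CPM, against 12.9, 9.63 and 13.0 in WT), while Cdh1 had 17, 8 and 58 counts in WT and 0 in the others, and Cldn4 23, 15 and 50 in WT and 0, 3 and 0 in the others. Smooth muscle and pericyte markers summed to 4872 to 5770 CPM in WT and 6289 to 7174 CPM in the others, but of 8 tested 4 were called lower (Cspg4, Myh11, Des and Notch3) and 2 higher (Tagln and Cnn1), with a median log2 fold change of -0.69. Cspg4 and Notch3 were past the filter's limit only in WT. Acta2 was the most abundant of these markers (4610 ± 548 and 4283 ± 739 CPM), and the paper names it as a marker of activated fibroblasts. This sum is therefore not particular to another cell type. Fibroblast markers were abundant throughout, at 3876 to 5254 CPM in WT and 5598 to 8715 CPM in the knockout-labelled libraries, where 4 of 9 were called higher and 1 lower. In WT replicate 3, where macrophage markers were highest, Adamts1, Adamts2, Adamts5, Adamts8 and Adamts12 were lowest among the WT libraries. Adamts4, Adamts7, Adamts9, Adamts10 and Adamts15 were not lowest there, and Adamts9 was highest there. The part of cell type make-up in the ADAMTS differences was not tested.

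The wider ADAMTS family added little. Of the 9 other ADAMTS genes listed, 4 had a count and 0 passed the filter; Adamts6 had the most, with 1, 6 and 12 counts in WT and 3, 5 and 11 in the knockout-labelled libraries. Of 7 ADAMTS-like genes, which encode secreted relatives without the protease domain, 2 were tested. Adamtsl5, which binds heparin and fibrillin microfibrils, fell by 1.46 on the log2 scale (SE 0.30, adjusted p = 4.43e-04), from 25.2 ± 1.12 to 9.13 ± 0.861 CPM. Adamtsl1 was not called (0.35, adjusted p = 0.543).

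Around the proteases, 52 genes for substrates, processing enzymes, inhibitors and cofactors were listed and 38 tested, of which 14 were called lower and 5 higher. Over all genes tested the shares were 22.1% lower and 22.8% higher, and 36.2% were lower in the group of longest transcripts. The median log2 fold change of the 38 genes was -0.48, beside -0.05 over all genes. Without WT replicate 3 there were 14 lower and 3 higher, and with library totals as scaling 25 lower and 2 higher.

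Of 8 hyalectans and link proteins only Vcan, versican, was tested, and it was not called (25.9 ± 8.24 and 20.7 ± 2.91 CPM, log2 fold change -0.35, 95% interval -0.94 to 0.24, adjusted p = 0.337). Of 5 procollagen genes tested, Col3a1 was called higher (353 ± 121 to 550 ± 160 CPM, 0.64, adjusted p = 0.0451), though its libraries overlapped, and the other 4 were not called. That call was lost in 8 of 19 alternatives, including the fit without WT replicate 3 (0.40). Among 12 other substrates tested, 5 were lower and 1 higher. Bgn, biglycan, a small leucine-rich proteoglycan, was at 4805 ± 659 and 1180 ± 266 CPM (log2 fold change -2.03, adjusted p = 3.64e-07). Fbn1, the microfibril protein fibrillin-1, fell by 1.86 on the log2 scale (adjusted p = 6.99e-07; -1.11 with the length correction), and Lox, the lysyl oxidase that cross-links collagen and elastin, fell by 1.78 (adjusted p = 1.54e-06). Nid2, the basement membrane protein nidogen-2, rose by 1.16 (log2, adjusted p = 1.99e-04).

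The C-proteinases work at the other end of procollagen from Adamts2. Of 4 genes tested for C-proteinases and their enhancers, 2 were lower and 0 higher. Bmp1, the main procollagen C-proteinase, was at 182, 177 and 175 CPM in WT and at 71.9, 52.7 and 74.2 CPM in the knockout-labelled libraries (-1.42, adjusted p = 1.17e-05). Pcolce, the enhancer of that cleavage, fell by 0.74 on the log2 scale (adjusted p = 0.00723), a call lost without knockout-labelled replicate 3.

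Of the 4 proprotein convertases, which activate ADAMTS precursors, 2 were lower and 1 higher. Furin was at 284, 224 and 207 CPM in WT and at 113, 72.0 and 95.2 CPM in the knockout-labelled libraries (-1.35, adjusted p = 3.67e-05). Pcsk6 fell from 34.8 ± 11.8 to 3.51 ± 3.21 CPM (-3.23, adjusted p = 5.86e-06). Pcsk7 went the other way, from 442 ± 18.8 to 1714 ± 654 CPM (1.95, adjusted p = 1.71e-06). Its counts were 680, 795 and 1247 in WT and 2929, 4125 and 2188 in the knockout-labelled libraries. Those of Tagln ran close beside them in every library, at 745, 845 and 1351 and at 3229, 4604 and 2361 (log2 fold change 1.99). Whether reads of Tagln were counted to Pcsk7 was not tested. The genes whose products put fucose and glucose on the thrombospondin repeats, Pofut2 (0.02, 95% interval -0.66 to 0.69, adjusted p = 0.974) and B3glct (-0.45, 95% interval -1.09 to 0.19, adjusted p = 0.245), were not called.

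Genes for inhibitors were called lower or not called, and those for cofactors and clearance receptors were called in both directions. Of 3 inhibitor genes tested, Timp3, the matrix-bound inhibitor of ADAMTS4 and ADAMTS5, fell by 1.35 on the log2 scale (2186 ± 470 to 858 ± 147 CPM, adjusted p = 4.03e-05) and Timp2 fell by 0.88 (adjusted p = 0.00233). Timp1, a weak inhibitor of these enzymes, was not called (0.21, adjusted p = 0.420). Among 7 cofactor and clearance genes tested, 3 were lower and 2 higher. Fn1, fibronectin, fell by 1.55 on the log2 scale (adjusted p = 3.56e-06), and Lrp1, the endocytic receptor that takes up ADAMTS4 and ADAMTS5, fell by 1.45 (adjusted p = 3.19e-05). Lrp1 was at -0.60 with the length correction and at -0.26, no longer called, with the length and GC correction. Lrp2, megalin, had 67 counts in WT and 1 in the knockout-labelled libraries, a ratio of 60.1 with a counting interval of 10.4 to 2407; it too had passed the filter only through WT. Ccbe1, a partner of ADAMTS3 in activating the lymphatic growth factor VEGFC, rose by 1.02 on the log2 scale (adjusted p = 0.00244), a call lost with library totals as scaling (0.60). Sdc4, a cell surface heparan sulphate proteoglycan, rose by 0.67 (adjusted p = 0.0204), a call lost with library totals as scaling (0.25), with the length and GC correction, without WT replicate 2 and without WT replicate 3.

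**Figure D5:**
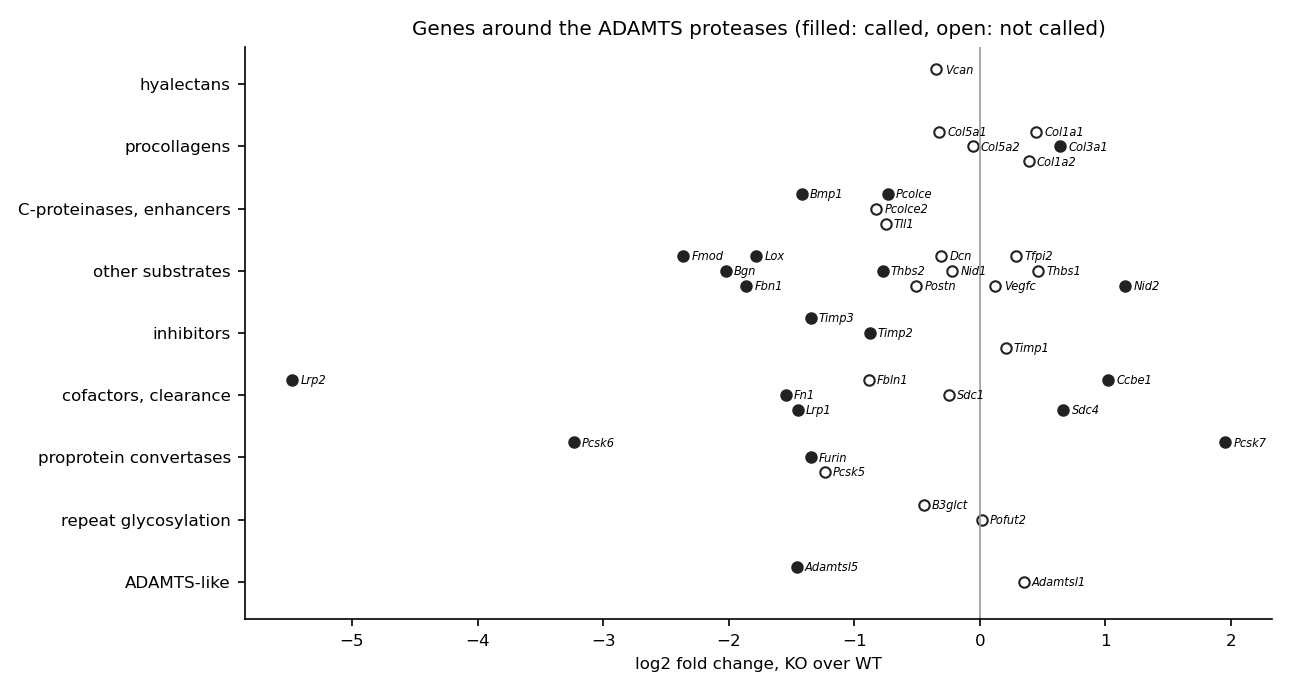
Log2 fold change, knockout-labelled over WT (x axis), of every gene tested in 8 lists around the ADAMTS proteases and in the ADAMTS-like list (rows), filled where called and open where not; height within a row only separates the labels. Of the 38 genes in the 8 lists, 14 are called lower and 5 higher, beside 22.1% and 22.8% of all genes tested. Lrp2 lies farthest left on 1 count in the knockout-labelled libraries. Pcsk7, whose counts ran close to those of Tagln, lies farthest right.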

How the data were processed

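RNA from 6 samples of mouse lung fibroblasts was sequenced by Quant-Seq, which reads the 3′ end of polyadenylated transcripts. The authors trimmed reads with Trim Galore, aligned them to GRCm38 with HISAT2 and then Bowtie2, and counted them with metaseqR2 over 3′ UTR regions summed per gene; these raw counts were deposited per sample (unit: counts per gene). The authors also deposited a table of values normalized with EDASeq, taken here as a score, since all 6 columns hold the same sorted values; it served as an alternative. Whether strand was used is not given in the sources used here.

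Groups came from the labels (3 WT, 3 labelled TKS5 knockout). The study calls its samples biologically independent without saying which mice or cultures gave these 6, so p-values measure the spread between these samples. No library repeated another: chi-square per degree of freedom was 3.89 to 10.5 within groups. Counts were filtered with filterByExpr (count minimum 10), scaled by TMM and tested with edgeR 4.0.16 (robust quasi-likelihood, R 4.3.3), Benjamini-Hochberg adjusted over 10346 genes; standard errors are the log2 fold change over the root of the F statistic. The exact two-sided permutation test of 3 against 3 libraries cannot go below p = 0.1, the value of every member but Adamts15. Intervals and floors cover counting error only where counts were summed. Alternatives were other scalings and filters, DESeq2 1.42.0, limma 3.58.1, corrections for length and GC content (loess, span 0.5), the replicate block and leaving out each library. The statistics were tested on simulated data. Gene coordinates and coding sequences came from GENCODE M21. The members, the gene lists and the tests were chosen with earlier results of these data known. Named genes were all members, Sh3pxd2a and, in each list, up to 3 called genes with the smallest adjusted p, plus uncalled genes where at most 3 were tested; Adamts3, Adamts6 and Adamts14 were added after their values were seen.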

Additional observations from a re-analysis of the deposited data

How the results depend on the processing

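Over 19 alternatives, 13 other settings and 6 fits that each left out 1 library, Adamts1, Adamts2, Adamts5 and Adamts12 were called lower in 19 of 19. Adamts8 was tested in 18 and called lower in each, but it passed the filter only through WT, so that count says nothing about stability. The number of members called lower ran from 4 to 7, against 6 as reported, and was 5 in each fit without a library. The number of genes called ran from 3705 to 5306, against 4642. Of the members and Sh3pxd2a, the sign turned in Adamts10 with the length and GC correction (0.16) and in Sh3pxd2a with library totals as scaling (-0.13). Sh3pxd2a was called higher with the length correction (1.00) and with the length and GC correction (1.15). Of the 40 surrounding and ADAMTS-like genes tested, 13 turned sign in at least 1 alternative, 0 of them called, and the median over all genes went from -0.05 to 0.03 with the length and GC correction. The cause was not tested. Counts over the lists of surrounding genes were chosen as a result after seeing the data.

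Replicate numbers did not pair the samples: deviations from the group means of same-numbered samples correlated across genes at -0.0010, -0.064 and 0.082, and not every sample correlated best with its own number. With the replicate block 4668 genes and 5 members were called, Adamts9 being lost (adjusted p = 0.0572); the block changed no other member's call.

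Depth limits the low members: in the knockout-labelled libraries Adamts7, Adamts8, Adamts9 and Adamts15 had 0 to 4 counts each, so sizes of change are poorly fixed, and 2 members could not be tested.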
